A study of Homo sapiens with 4 samples.

Results

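The genes described here are the 3 small MAF genes (MAFF, MAFG and MAFK), the 3 NRF genes (NFE2L1, NFE2L2 and NFE2L3), the 2 BACH genes (BACH1 and BACH2) and KEAP1, and the measurement was chromatin accessibility around them. The 9 genes were chosen by name in the GENCODE v44 annotation. Accessible sites were formed by merging the peaks of all 4 libraries that overlapped by at least 1 bp, and 754 of 307691 such sites lay within 100 kb of an annotated start site of any of the 9 genes. The cells were SKBR3, a long-established line from a breast cancer with HER2 amplification. ATAC-seq marks open chromatin, because the Tn5 transposase inserts sequencing adaptors mainly where DNA is not packed. The samples comprised 2 untreated libraries and 2 libraries from cells that received TWEAK, a cytokine of the TNF family that binds the receptor Fn14. The growth protocol, given in the same words for every library, describes seeding in DMEM with 10% FBS, starvation in optimem for 8 h, and TWEAK at 10 ng/ml for 48 h, replenished after 24 h. It does not say whether the untreated cells were starved too. All libraries come from a single cell line, so the values describe SKBR3 and no other HER2-positive cell.

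Small MAF proteins are bZIP transcription factors that lack an activation domain, so what they do at a site depends on the partner they pair with. With NRF proteins they form dimers that activate genes carrying antioxidant response elements, and with BACH proteins they form dimers that repress many of the same genes. KEAP1 is the adaptor that holds NRF2, the product of NFE2L2, for degradation until oxidants or electrophiles release it.

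For each site, the strength of its best peak was expressed as enrichment, the pileup of fragments at the peak divided by the background of that library, and as a rank, the percentile of the peak within its own list, with 100 the strongest. The lists held 195388 to 228734 peaks, and the background pileup was 3.59 and 2.24 in the untreated libraries and 2.63 and 1.85 in the TWEAK libraries. This background scales with depth, and it differed at least as much within a treatment as between treatments. The median enrichment of all peaks in a list was 7.53 and 8.05 untreated and 8.74 and 10.8 with TWEAK, so uncentred enrichment tends to be higher in the TWEAK libraries. Enrichment is given below as measured, and log2 changes are given after centring. Their standard errors are limma's, which draw the spread at a site toward that of sites of similar enrichment. Ranges said to overlap are of enrichment before centring. Sites present in both TWEAK lists but in neither untreated list were termed gained, and sites present in both untreated lists alone were termed lost. A shared site had a peak in all 4 lists, and only shared sites could be tested, with limma on log2 enrichment centred on the median of each library and Benjamini-Hochberg adjustment over all 131751 shared sites. Promoter peaks of luminal epithelial markers were shared in 10 of 10 genes, and the ERBB2 promoter had rank 100 in every list. Promoters of markers of other cell types were not all closed, since 7 of 12 had a shared site, KRT5 with ranks of 75.6 and 72.6 in the untreated and 84.3 and 84.4 in the TWEAK lists, whereas PTPRC, CD3E, LYZ, COL3A1 and PECAM1 had none.

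Sequences of 5 sites called higher with TWEAK are given first. They carry the clearest changes near NFE2L3, BACH1 and BACH2 or, at a second NFE2L3 site and near MAFG, hold a motif that these proteins are known to bind. All 5 hold a match, whereas other sites called higher, such as the clearest near MAFG, held none. Each is 201 bases of the plus strand of hg38 around the centre of the peak in TWEAK replicate 1. Capitals mark matches to AP-1 (TGAGTCA), to the NF-E2 motif bound by NRF and MAF dimers (GCTGAGTCA), to the core of the antioxidant response element (TGACNNNGC) or to the NF-kB consensus, searched on both strands. The NF-E2 motif contains AP-1, and its reverse complement (TGACTCAGC) matches the antioxidant response element core, so these matches overlap. A match describes letters and not binding.
NFE2L3 intron, chr7:26156419-26156619, 2 NF-kB matches: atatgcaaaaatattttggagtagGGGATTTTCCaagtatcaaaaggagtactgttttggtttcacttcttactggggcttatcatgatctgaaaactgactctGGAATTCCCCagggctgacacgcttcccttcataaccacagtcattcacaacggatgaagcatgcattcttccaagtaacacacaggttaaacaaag
NFE2L3 upstream, chr7:26143739-26143939, overlapping AP-1, NF-E2 and element core matches, then a further core match: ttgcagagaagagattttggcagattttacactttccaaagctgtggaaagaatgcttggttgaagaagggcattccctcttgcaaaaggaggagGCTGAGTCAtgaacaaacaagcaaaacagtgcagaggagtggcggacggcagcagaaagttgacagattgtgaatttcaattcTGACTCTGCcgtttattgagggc
BACH1 intron, chr21:29196433-29196633, AP-1 then NF-kB: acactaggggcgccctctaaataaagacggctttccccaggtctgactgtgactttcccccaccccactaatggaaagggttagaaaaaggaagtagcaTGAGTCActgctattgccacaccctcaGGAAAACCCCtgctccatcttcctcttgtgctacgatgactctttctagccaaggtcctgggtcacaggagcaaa
BACH2 intron, chr6:90184621-90184821, NF-kB: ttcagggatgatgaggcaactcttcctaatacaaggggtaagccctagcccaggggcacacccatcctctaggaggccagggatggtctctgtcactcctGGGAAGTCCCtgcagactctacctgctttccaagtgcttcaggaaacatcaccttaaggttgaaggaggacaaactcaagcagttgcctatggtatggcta
MAFG flank, chr17:81886278-81886478, overlapping AP-1, NF-E2 and element core matches: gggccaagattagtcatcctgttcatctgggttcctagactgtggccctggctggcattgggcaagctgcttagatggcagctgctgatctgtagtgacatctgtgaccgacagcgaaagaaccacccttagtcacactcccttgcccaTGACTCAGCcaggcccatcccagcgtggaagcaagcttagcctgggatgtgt

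NF-kB matches were present in 5 of the 20 member sites called higher (25%), beside 21.6% of all 7667 shared sites called higher and 5.96% of all shared sites. AP-1 was present in 4 of the 20 (20%), beside 26.5% and 10.6%. The NF-E2 motif was present in 2 of the 20, beside 2.65% and 1.14%, and the antioxidant response element core in 3 (15%), beside 12.3% and 10.4%. Among the 350 shared sites of the 9 genes as a whole, NF-kB matches were present in 9.71%, AP-1 in 10.6% and the element core in 13.1%. Of the 33 member sites called lower, 4 held NF-kB (12.1%, beside 3.10% of all shared sites called lower), 3 AP-1 (9.09%, beside 5.11%) and 7 the element core (21.2%, beside 9.70%).

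Across the 9 genes, the counts of altered sites stood near those of the whole genome. Of the 20 sites called higher with TWEAK, 9 were intergenic, 8 intronic and 3 within 1 kb of a start of a protein-coding gene. Of the 33 called lower, 11 were intergenic, 8 intronic, 5 exonic and 9 within 1 kb of a start. These classes, and the nearest genes named below, take in protein-coding genes alone. A bulk library cannot tell fewer cells with an open site from less opening in each cell. Peaks were found at 536 and 575 of the 754 sites in the untreated libraries and at 538 and 489 in the TWEAK libraries. The first TWEAK value lies between the untreated values and the other below them, with a mean difference of -42 sites and a two-sided exact permutation p of 0.667 (n = 2 per group), where 0.33 is the smallest p that 4 libraries allow. Of the 754 sites, 350 were shared (46.4%, against 42.8% of all sites), 185 had a peak in a single library and 115 in 3 libraries.

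Gained sites numbered 20 (2.65%, against 3.6% of all sites) and lost sites 32 (4.24%, against 3.79%). Enrichment at the gained sites ran from 3.42 to 16.2 in the TWEAK libraries, and at the lost sites from 2.79 to 11.2 in the untreated libraries, so most were weak peaks. A peak of the other treatment lay within 500 bp of many of them, and 12 gained and 11 lost sites remained without such neighbours. Only 3 gained and 2 lost sites lay above the 50th percentile in both libraries that had them. By rank, 49 shared sites (14.0%, against 15.8% of all shared sites) were higher in both TWEAK lists than in both untreated lists, and 148 (42.3%, against 35.4%) were lower. These ranks come from lists of unequal length. Ranked among the shared sites alone, an alternative chosen after seeing the data, 66 (18.9%, against 23.3% of all shared sites) were higher and 118 (33.7%, against 28.0%) lower.

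limma called 20 of the 350 shared sites higher with TWEAK (5.71%, against 5.82% of all shared sites) and 33 lower (9.43%, against 8.87%) at an adjusted p under 0.05. The median change of all shared sites was -0.11 on the log2 scale after median centring and -0.03 after quantile normalisation, and that of the member sites -0.17 and -0.09. After quantile normalisation 21 member sites were called higher (6.0%, against 5.78%) and 9 lower (2.57%, against 4.15%). The share of called sites that were higher thus moved from 37.7% to 70.0% near the members and from 39.6% to 58.2% over all sites. All 20 sites called higher after median centring were also called after quantile normalisation, whereas 24 of the 33 lower sites were called after median centring alone. At the 20, both TWEAK enrichments were above both untreated ones before centring, but the calls were made from these same values. Without TWEAK replicate 2 the same limma fit called 0 of 146305 shared sites (20970 at an unadjusted p under 0.05), none of them near the members (22 higher and 35 lower at an unadjusted p under 0.05). The fits without any other library called 25 to 37 member sites.

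**Figure D1:**
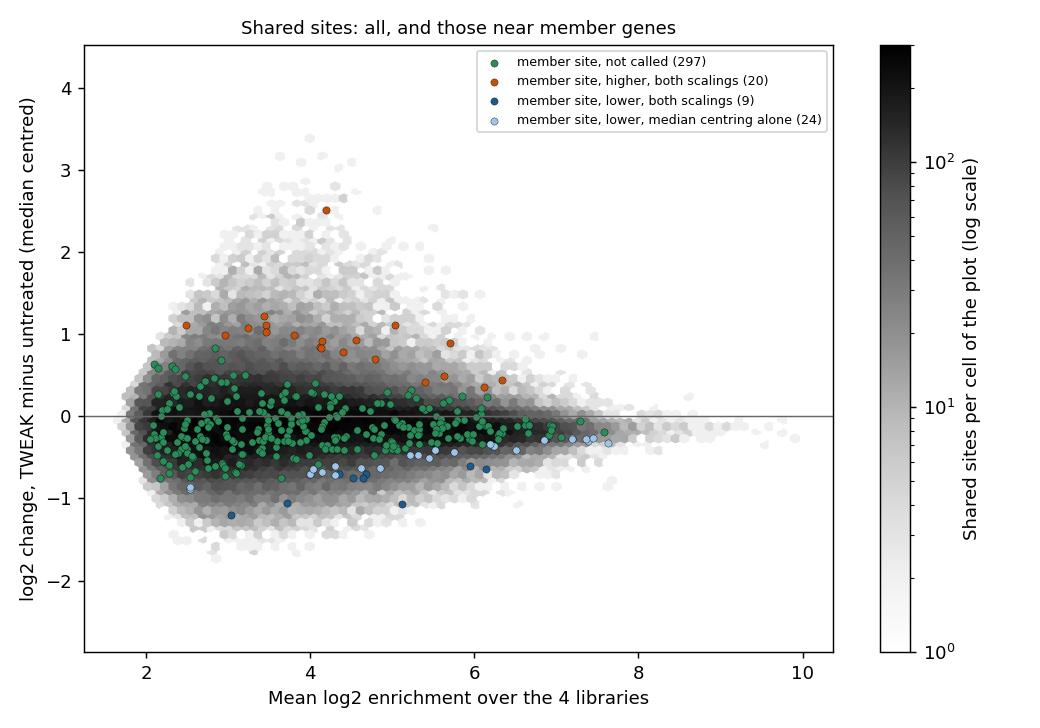
log2 change of enrichment (TWEAK minus untreated, median centred) against mean log2 enrichment over the 4 libraries, for all shared sites (grey, darker where more sites fall) and for the 350 shared sites near the 9 genes (points). The 20 sites higher under both scalings lie above the bulk, led by the NFE2L3 intron site at 2.51, and most sites called lower by median centring alone lie close to the bulk at high enrichment.

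The 9 genes differed in how crowded their surroundings were. Peaks covered on average 30.8% of the window around MAFK and 28.5% of that around MAFG, and 2.81% of that around BACH1. The nearest annotated start belonged to the gene itself for 7 of 151 sites near MAFG, 8 of 87 near MAFF and 23 of 171 near MAFK. For BACH1 it did so for 37 of 43 sites, for BACH2 for 42 of 49 and for NFE2L3 for 61 of 94. Of all 224 sites nearest to a member's own start, 106 were shared. After median centring 13 of these (12.3%, against 5.82% of all shared sites) were called higher and 4 (3.77%, against 8.87%) lower, and after quantile normalisation 14 (13.2%, against 5.78%) and 0 (0%, against 4.15%). These shares were not tested against the genome's. Sites near the small MAF genes are for the most part nearest to another gene. Among the shared sites of each gene, those called higher after median centring ran from 0 of 43 at MAFF and 0 of 20 at NFE2L2 to 5 of 40 at NFE2L3 (12.5%) and 3 of 20 at BACH1 (15%), beside the genome's 5.82%. Those called lower ran from 1 of 33 at KEAP1 (3.03%) to 4 of 24 at NFE2L1 (16.7%), beside 8.87%. The genes had 20 to 75 shared sites each, and differences between them were not tested.

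**Figure D2:**
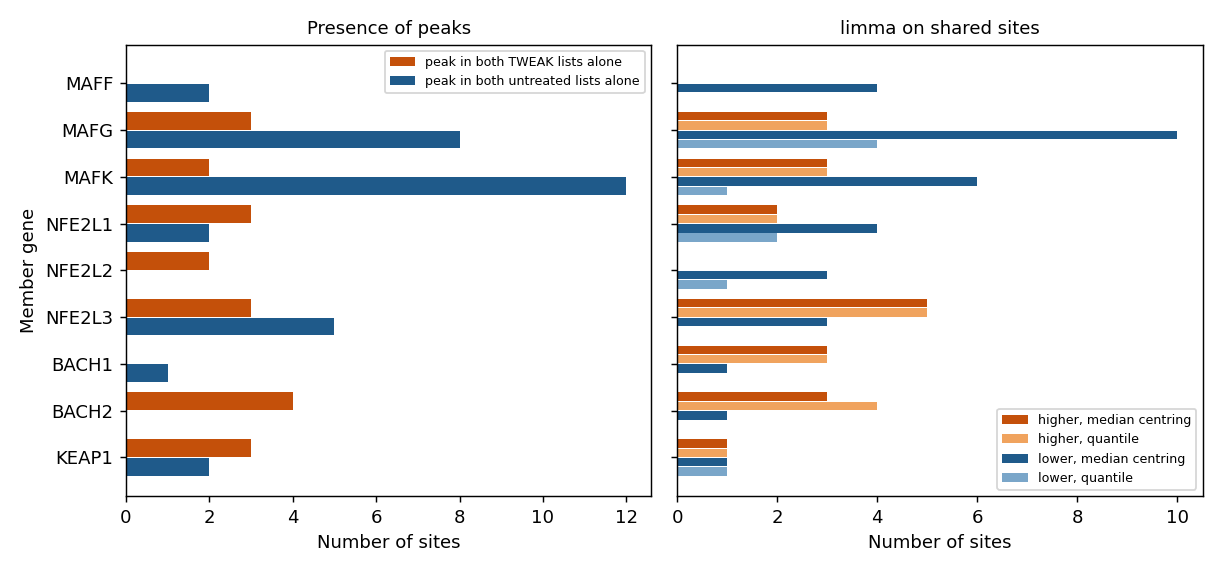
Number of sites per gene with a peak in both libraries of 1 treatment alone (left), and number of shared sites called by limma under median centring and quantile normalisation (right). Of its 40 shared sites NFE2L3 had 5 higher under both scalings, MAFG had 10 of 69 lower that became 4, and MAFF and NFE2L2 had none higher of 43 and 20.

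The strongest promoter site of each gene was shared and ranked between 86.2 and 99.8 in every list, and its change was small. Its log2 change lay between -0.32 and -0.10 after median centring, with 1 of 9 called, and between -0.17 and 0.02 after quantile normalisation, with 0 of 9 called. Altogether 50 sites lay within 1 kb of a member's start, of which 26 were shared, 2 gained and 4 lost, where 3.6% and 3.79% of all sites were gained and lost. Of the 26, limma called 1 higher, an internal NFE2L1 promoter, and 2 lower, at MAFK and BACH2, where 5.82% and 8.87% of all shared sites were called. Both lower calls were lost after quantile normalisation. These small counts were not tested against the genome's shares.

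**Figure D3:**
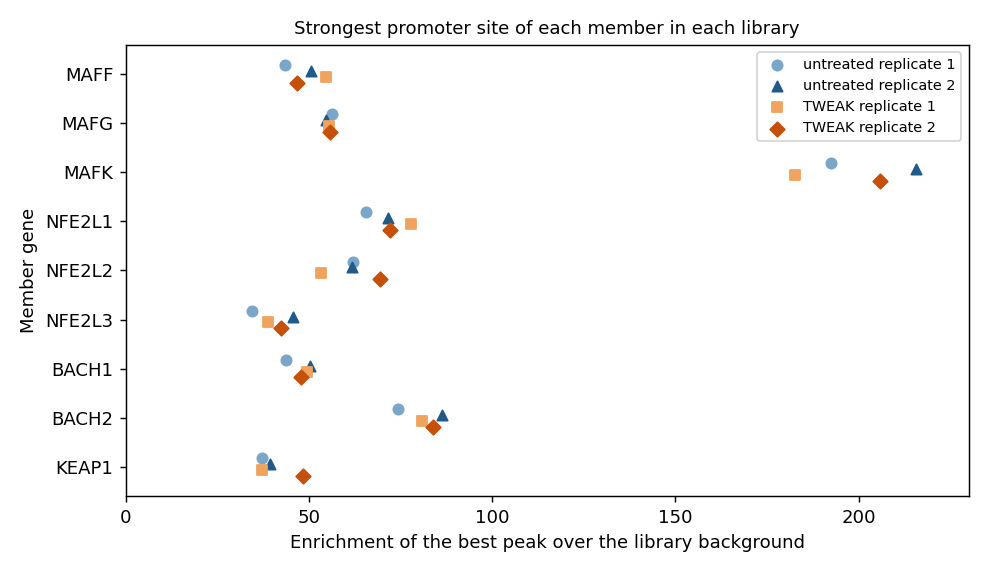
Enrichment of the best peak at the strongest promoter site of each gene (linear axis), with a point for each of the 4 libraries. The 4 values ran from 54.6 to 56.3 for MAFG, from 34.3 to 45.6 for NFE2L3, from 53.2 to 69.3 for NFE2L2, from 37.1 to 48.2 for KEAP1 and from 183 to 216 for MAFK.

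Of the sites called near the small MAF genes, the only one nearest to its gene's own start was a MAFK promoter. MAFG (chr17:81918270-81927735, minus strand) had enrichment of 56.3 and 54.6 in the untreated and 55.5 and 55.8 in the TWEAK libraries at its promoter, chr17:81927128-81928144, with overlapping ranges. The log2 change there was -0.24 ± 0.13 (SE) with an limma adjusted p of 0.223. The RefSeq promoter of MAFG (assembly GRCh38.p14, minus strand, chr17:81927736-81927985, the 250 bases before the start) is shown because it lies in this peak, and it holds none of the motifs searched.
MAFG promoter: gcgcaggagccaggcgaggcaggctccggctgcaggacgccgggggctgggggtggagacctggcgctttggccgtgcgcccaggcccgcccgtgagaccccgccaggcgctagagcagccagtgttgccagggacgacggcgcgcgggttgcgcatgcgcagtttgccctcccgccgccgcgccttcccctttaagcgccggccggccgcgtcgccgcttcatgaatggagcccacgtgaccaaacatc
Such promoter windows, which also take in 50 bases after the start, were found for 8 of the 9 genes. Of their 14 windows, 1 held AP-1 (at BACH1), 0 the NF-E2 motif, 2 the antioxidant response element core and 3 the NF-kB consensus, beside 4.95%, 0.561%, 13.4% and 11.3% of all 35116 promoter windows. Among 15164 genes with a shared promoter site, those whose 4 ranks lay closest to those of MAFG (94.1, 92.5, 92.6 and 90.8) were DNPEP, SLC41A2 and FOSL1, the last encoding the AP-1 subunit FRA1.

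Around MAFG, 3 of 69 shared sites (4.35%, against 5.82% of all shared sites) were higher with TWEAK, and none of the 3 lay nearest to MAFG. The site at chr17:81976582-81977120, at a start of ASPSCR1, had enrichment of 15.3 and 16.1 untreated and 34.9 and 36.3 with TWEAK. Both TWEAK values were above both untreated values, with a log2 change of 0.93 ± 0.19 (SE) and an limma adjusted p of 0.00024. The site whose sequence with the NF-E2 motif is given above, chr17:81886121-81886657, lies 2330 bp from the start of ALYREF. Its enrichment was 33.5 and 43.8 untreated and 58.5 and 70.4 with TWEAK (log2 change 0.50 ± 0.14, limma adjusted p = 0.0078). The third, chr17:81865729-81866250, lies 2380 bp from ARHGDIA, with 29.0 and 38.9 untreated and 55.5 and 50.9 with TWEAK (log2 change 0.41 ± 0.15). Without untreated replicate 1 the calls near ALYREF and ARHGDIA were lost (log2 changes 0.43 and 0.33), and that near ARHGDIA also without TWEAK replicate 1 (0.34).

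Of the 69 shared sites around MAFG, 10 were lower after median centring (14.5%, against 8.87% of all shared sites) and 4 after quantile normalisation (5.8%, against 4.15%), and the 4 lay in or beside ASPSCR1 and CENPX. The clearest, chr17:82018449-82019022 in an exon of CENPX and nearest to a start of ASPSCR1, had 75.8 and 86.3 untreated and 62.7 and 60.6 with TWEAK (log2 change -0.64 ± 0.12, limma adjusted p = 6.6e-05). In introns of ASPSCR1, chr17:81987063-81987752 had 63.8 and 76.0 untreated and 46.7 and 63.4 with TWEAK (log2 change -0.61 ± 0.13), and chr17:81998938-81999482 had 27.3 and 27.3 untreated and 19.0 and 19.5 with TWEAK (log2 change -0.75 ± 0.19). The call at the first of these was lost without TWEAK replicate 1 (log2 change -0.40) and at the second without untreated replicate 1 (-0.62). Of the 151 sites of MAFG, 3 were gained (1.99%, against 3.6% of all sites) and 8 lost (5.3%, against 3.79%). The strongest gained site overlapped a start of ARHGDIA (chr17:81869232-81869753, 13.3 and 16.2 with TWEAK). The strongest lost site lay in an intron of ASPSCR1 (chr17:81985050-81985823, 8.1 and 10.3 untreated). Within 1 kb of an internal MAFG start, a weak gained site (3.8 and 4.3 with TWEAK) and a weak lost site (3.6 and 5.4 untreated) lay side by side. The most accessible site beyond 1 kb was the P4HB promoter, chr17:81860554-81861558, with 158 and 195 untreated and 170 and 178 with TWEAK. These uncentred values overlap, while its ranks were 99.69 and 99.73 untreated and 99.64 and 99.56 with TWEAK. It was called lower after median centring alone.

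MAFK (chr7:1530702-1543043, plus strand) carried the strongest promoter of the 9 genes, at an internal start 6648 bp into the gene, chr7:1537074-1537600. Enrichment there was 192 and 216 untreated and 183 and 206 with TWEAK, so the groups overlap before centring. The ranks of this site did not overlap, at 99.83 and 99.80 untreated and 99.73 and 99.72 with TWEAK. limma called it lower after median centring (log2 change -0.32 ± 0.08, adjusted p = 0.0047) but not after quantile normalisation (-0.17), without untreated replicate 1 (-0.27) or without TWEAK replicate 1 (-0.25). The site at its first start, chr7:1530433-1530949, had 37.4 and 38.02 untreated and 45.6 and 48.7 with TWEAK, with a log2 change of 0.07 and an limma adjusted p of 0.793.

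Near MAFK, 3 of 75 shared sites (4%, against 5.82% of all shared sites) were called higher, all nearest to other genes. In an intron of TMEM184A, chr7:1558898-1559427 rose from 54.9 and 73.4 to 99.1 and 106.7 (log2 change 0.45 ± 0.11, limma adjusted p = 0.0036). A site 150 bp from the start of PSMG3 rose from 50.5 and 63.5 to 74.4 and 99.1 (log2 change 0.35 ± 0.12), a call lost without untreated replicate 1 (0.32). A weaker intergenic site, chr7:1590410-1591424, nearest to PSMG3 at 19405 bp, rose from 4.5 and 5.8 to 10.6 and 13.5 (log2 change 0.99 ± 0.29), although its best peaks lay up to 514 bp apart between libraries. Of 6 lower sites, the only call kept after quantile normalisation was intergenic, 9735 bp from INTS1, with 30.4 and 29.5 untreated and 19.7 and 24.4 with TWEAK (log2 change -0.70 ± 0.18). That call was lost without untreated replicate 1 (-0.55) and without TWEAK replicate 1 (-0.56). Of the 171 sites of MAFK, the most of the 9 genes, 2 were gained (1.17%, against 3.6% of all sites) and 12 lost (7.02%, against 3.79%), and none of them lay above the 50th percentile in both libraries. Among gained sites, a MICALL2 intron held the best ranked (10.6 and 9.2 with TWEAK) and among lost sites a start of INTS1 (4.7 and 4.9 untreated).

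MAFF (chr22:38200767-38216507, plus strand) had no gained site and no higher site. Its promoter, chr22:38201745-38202281, had 43.5 and 50.5 untreated and 54.7 and 46.6 with TWEAK, with overlapping groups (log2 change -0.14 ± 0.14, limma adjusted p = 0.551). All 4 sites called lower, which were nearest to PLA2G6, TMEM184B and CSNK1E, lost the call after quantile normalisation. The 2 lost sites lay near PLA2G6, which borders MAFF, the stronger at 7.2 and 8.9 untreated.

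Among the NRF genes, NFE2L3 held the largest log2 change of the 350 shared sites. NFE2L3 encodes NRF3, a membrane-anchored relative of NRF2 (chr7:26152198-26187137, plus strand). Its intron site at chr7:26155132-26156859, centred 4321 bp downstream of the canonical start and shown above with its NF-kB matches, had enrichment of 5.6 and 8.9 untreated and 45.6 and 49.8 with TWEAK. In rank it stood at 38.01 and 54.8 in the untreated lists and at 89.9 and 89.1 in the TWEAK lists. The groups were far apart, with a log2 change of 2.51 ± 0.21 (SE) and an limma adjusted p of 2.8e-13. It kept its direction in all 10 alternative settings in which it was tested and missed the threshold in 1 of them, without TWEAK replicate 2.

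The NFE2L3 promoter itself, chr7:26151891-26152401, did not pass the test. Its enrichment was 34.3 and 45.6 untreated and 38.7 and 42.2 with TWEAK, with a log2 change of -0.22 ± 0.15 and an limma adjusted p of 0.359. The other 4 higher sites of NFE2L3 lay upstream, and for each of them NFE2L3 was the nearest start. At 8359 bp upstream, the site with the NF-E2 motif shown above had 9.2 and 8.9 untreated and 20.5 and 22.2 with TWEAK (log2 change 0.99 ± 0.24, limma adjusted p = 0.0027). The site 49802 bp upstream had 15.3 and 25.9 untreated and 36.1 and 41.2 with TWEAK (log2 change 0.70 ± 0.18). The site 68843 bp upstream had 14.5 and 9.8 untreated and 23.9 and 27.1 with TWEAK (log2 change 0.84 ± 0.23). The weakest, 29037 bp upstream, had 3.9 and 3.1 untreated and 11.4 and 7.0 with TWEAK, and its best peaks lay up to 282 bp apart. The calls at these 3 sites were not kept when single libraries were left out, in fits that set 1 library against 2. The site at 49802 bp lost its call without untreated replicate 1 (log2 change 0.45) and that at 68843 bp without untreated replicate 2 (0.48). The site at 29037 bp lost it without untreated replicate 2 (0.87) and without TWEAK replicate 1 (0.75). The 3 lower sites, 2 of them at HNRNPA2B1, lost the call after quantile normalisation, and the 3 gained and 5 lost sites were all weak. The best ranked gained site, 99028 bp from the nearest NFE2L3 start, had 5.7 and 7.6 with TWEAK, and the best ranked lost site, 691 bp from a start, had 5.0 and 5.8 untreated.

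**Figure D4:**
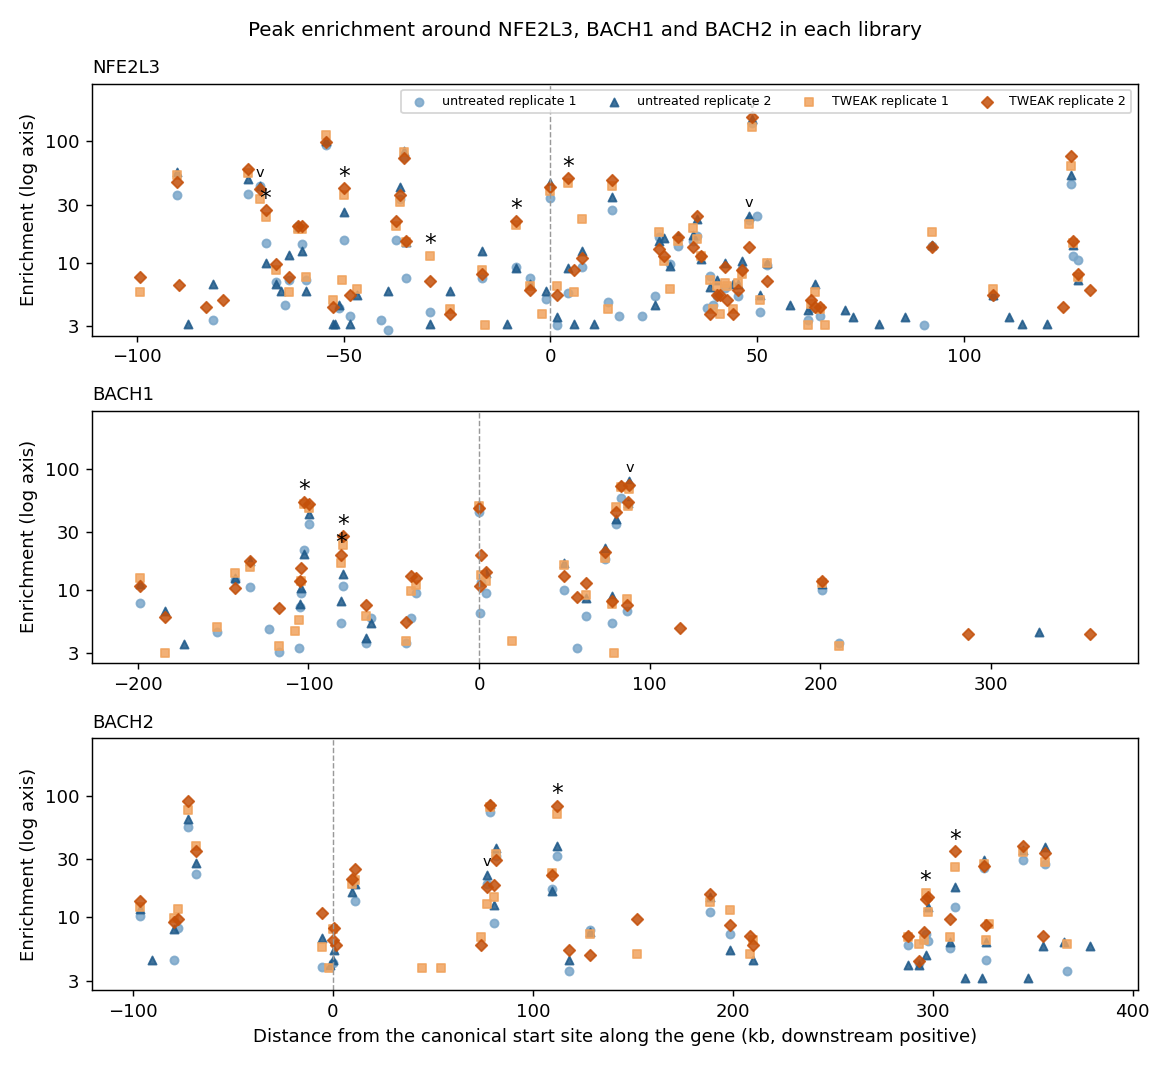
Enrichment of each site around NFE2L3, BACH1 and BACH2 (log axis) by distance from the canonical start site in kb, with a point for each library that had a peak. Stars mark sites called higher and the letter v sites called lower after median centring. The NFE2L3 intron site and the BACH1 and BACH2 intron sites stand out.

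NFE2L1, which encodes NRF1, an activator of proteasome genes (chr17:48048329-48061545, plus strand), had 24 shared sites. After median centring 2 were called higher (8.33%, against 5.82% of all shared sites) and 4 lower (16.7%, against 8.87%). Both higher calls (8.33%, against 5.78%) and 2 of the lower calls (8.33%, against 4.15%) were kept after quantile normalisation. The higher sites were both nearest to NFE2L1. The first, chr17:48053277-48053797, lies 531 bp from an internal start and had 11.4 and 12.1 untreated and 23.9 and 29.2 with TWEAK (log2 change 0.92 ± 0.22, limma adjusted p = 0.0017). The second, chr17:48067681-48068222, lies beyond the 3′ end of the gene and had 5.9 and 8.1 untreated and 16.3 and 19.0 with TWEAK (log2 change 1.11 ± 0.26, limma adjusted p = 0.0020). Both TWEAK values exceeded both untreated values at each.

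A gained site at chr17:48055601-48056121, over another internal NFE2L1 start, had 14.1 and 10.8 with TWEAK and no peak in the untreated lists. The strongest gained site, at a start of CDK5RAP3, had 12.9 and 14.1. The main promoter, chr17:48047959-48048985, had 65.5 and 71.6 untreated and 77.9 and 72.0 with TWEAK (log2 change -0.12 ± 0.12, limma adjusted p = 0.558). Of the lower sites, one 6140 bp from CDK5RAP3 was called under both scalings, with 27.3 and 32.2 untreated and 19.7 and 22.2 with TWEAK (log2 change -0.75 ± 0.18, limma adjusted p = 0.0024). The strong lost site of this region lay in an intron of SKAP1, at 8.9 and 8.1 untreated.

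NFE2L2 (chr2:177218667-177392756, minus strand), which encodes NRF2, the principal oxidative stress factor of the family, had no site called higher. Its strongest promoter site, chr2:177263354-177263882, had 61.9 and 61.7 untreated and 53.2 and 69.3 with TWEAK, which straddle the untreated values before centring (log2 change -0.27 ± 0.13, limma adjusted p = 0.149). The ranks there were 95.1 and 93.9 untreated and 92.0 and 93.8 with TWEAK. At its canonical start, 33.2 and 42.5 stood beside 37.6 and 41.7. The lower call kept under both scalings, chr2:177179167-177179757, was intergenic and nearest to HNRNPA3, with 15.6 and 19.2 untreated and 9.1 and 10.8 with TWEAK (log2 change -1.05 ± 0.25, limma adjusted p = 0.0017). Of 2 gained sites, the stronger was nearest to HNRNPA3 (9.5 and 11.4 with TWEAK) and the weaker lay in an intron of NFE2L2 (3.4 and 4.9).

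The BACH genes had few sites, most of them nearest to the genes themselves, and each had 3 higher sites in its introns. These were 3 of 20 shared sites at BACH1 (15%) and 3 of 26 at BACH2 (11.5%), beside 5.82% of all shared sites, and the difference was not tested. BACH1 encodes a haem-regulated repressor of antioxidant genes (chr21:29194071-29630751, plus strand). Its clearest site, chr21:29196251-29196789, lies 2104 bp from the nearest annotated BACH1 start but 102389 bp upstream of the canonical start. It is the BACH1 sequence shown above, with AP-1 and NF-kB matches. Its enrichment was 21.5 and 19.7 untreated and 51.7 and 53.6 with TWEAK (log2 change 1.11 ± 0.16, limma adjusted p = 1.1e-06). Replicates lay within 2 units of enrichment of each other in each group, far less than the difference between groups.

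Also intronic, and still 80897 bp upstream of the canonical start, chr21:29217767-29218357 had 5.3 and 8.1 untreated and 16.7 and 19.5 with TWEAK (log2 change 1.22 ± 0.27, limma adjusted p = 0.00076). The neighbouring site chr21:29218757-29219286, 79897 bp upstream of that start, had 10.9 and 13.4 untreated and 23.5 and 27.6 with TWEAK (log2 change 0.83 ± 0.21). The BACH1 promoter had 43.8 and 50.1 untreated and 49.4 and 47.6 with TWEAK, with the TWEAK values inside the untreated range (log2 change -0.20 ± 0.14, limma adjusted p = 0.369). The most accessible site away from it, chr21:29386760-29387277, had 71.6 and 79.6 untreated and 68.7 and 73.1 with TWEAK and was called lower after median centring alone. BACH1 had no gained site and 1 lost site, in an intron, with 5.9 and 5.4 untreated.

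BACH2, a repressor best known from B lymphocytes (chr6:89926528-90296843, minus strand), had 4 gained sites of 49 (8.16%, against 3.6% of all sites) and no lost site (0%, against 3.79%), differences that were not tested. Its shared sites had a median log2 change of 0.24, where the other 8 genes had medians from -0.27 to -0.02. The clearest site, chr6:90184468-90185231, had 31.8 and 38.9 untreated and 71.8 and 83.4 with TWEAK (log2 change 0.89 ± 0.13, limma adjusted p = 1.2e-06). The peaks of this site were not centred alike, since those of the untreated lists were centred at 90184981 and 90184980 and those of the TWEAK lists at 90184721 and 90184718. The BACH2 sequence shown above, with its NF-kB match, lies under the TWEAK peaks, and the value compares neighbouring peaks rather than a single summit.

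At 2 other BACH2 intron sites the peaks coincided within 58 bp. chr6:89985235-89985750 had 12.3 and 17.9 untreated and 25.8 and 35.2 with TWEAK (log2 change 0.78 ± 0.20). chr6:90000079-90000637 had 7.2 and 4.9 untreated and 15.95 and 14.1 with TWEAK (log2 change 1.08 ± 0.29). The first lost its call without untreated replicate 1 (0.63), and the second without untreated replicate 2 (0.72) and without TWEAK replicate 1 (0.98). The 4 gained sites of BACH2 lay in introns, with enrichment between 4.9 and 9.7, and the best ranked, with 6.5 and 7.6, was next to the site at 90000079. The canonical BACH2 promoter was weak, at 4.2 and 4.5 untreated and 8.0 and 6.5 with TWEAK, and did not pass the test (log2 change 0.49, limma adjusted p = 0.300). The strongest BACH2 promoter, at an internal start, had 74.2 and 86.3 untreated and 80.9 and 83.9 with TWEAK. These uncentred values overlap, while its ranks were 96.7 and 96.9 untreated and 96.6 and 95.9 with TWEAK.

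**Figure D5:**
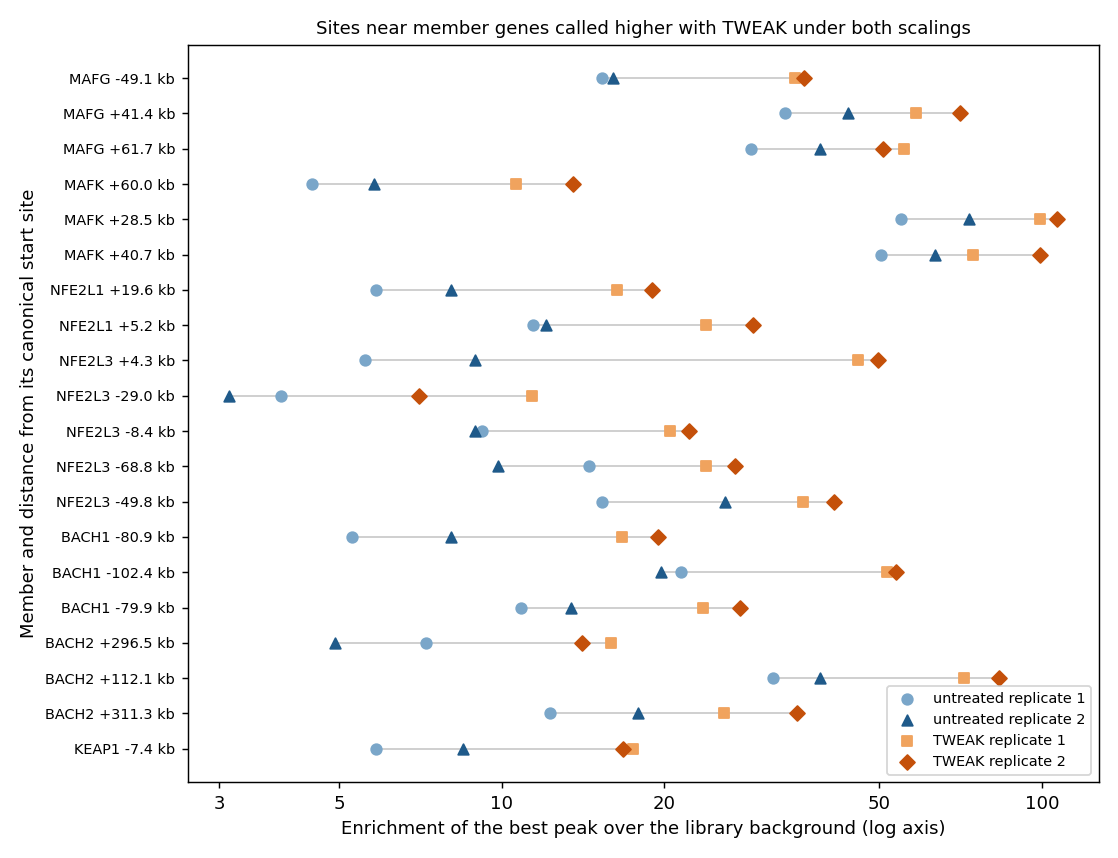
Enrichment (log axis) in each library at the 20 sites near the 9 genes that were called higher under both scalings, labelled by gene and distance from its canonical start. Both TWEAK points lie to the right of both untreated points in every row, with the widest gap at the NFE2L3 site 4.3 kb downstream. The sites were called from these same values, so the separation adds nothing to the calls.

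KEAP1 (chr19:10486125-10503558, minus strand) had 1 higher and 1 lower of 33 shared sites under both scalings (3.03% each), neither nearest to KEAP1. After median centring 5.82% and 8.87% of all shared sites were called. The higher site, chr19:10510452-10510978, lies 7355 bp upstream of KEAP1 and 6449 bp from S1PR5, with 5.9 and 8.5 untreated and 17.5 and 16.8 with TWEAK (log2 change 1.03 ± 0.26, limma adjusted p = 0.0044). The lower site, in an exon of AP1M2, had 10.3 and 12.5 untreated and 5.3 and 6.5 with TWEAK (log2 change -1.20 ± 0.28, limma adjusted p = 0.0020). The strongest KEAP1 promoter site, chr19:10501425-10502468, was centred 1160 bp downstream of the canonical start. It had 37.1 and 39.4 untreated and 37.2 and 48.2 with TWEAK and did not pass the test (log2 change -0.10 ± 0.15, limma adjusted p = 0.506). The 3 gained and 2 lost sites of KEAP1 were weak. The best ranked gained site had 6.5 and 9.7 with TWEAK, and the lost site at an internal KEAP1 start had 4.5 and 11.2 untreated.

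The most accessible shared site beyond 1 kb of their own starts lay at another gene's promoter for 4 of the remaining genes. For NFE2L3 it was a promoter of HNRNPA2B1, with 142 and 153 untreated and 132 and 159 with TWEAK, called lower after median centring alone. For MAFK it was a promoter of TMEM184A, with 177 and 199 untreated and 179 and 213 with TWEAK. For NFE2L2 it was a promoter of HNRNPA3 (73.3 and 81.9 untreated, 75.2 and 82.3 with TWEAK), and for KEAP1 a promoter of CDKN2D (67.2 and 93.0 untreated, 75.6 and 79.1 with TWEAK). For NFE2L1 it was intronic (53.2 and 56.4 untreated, 61.9 and 63.9 with TWEAK). Uncentred enrichment overlapped between the groups at the 4 promoters, although both TWEAK ranks lay below both untreated ranks at each but that of CDKN2D. At the NFE2L1 site both TWEAK values were above the untreated ones, while the centred log2 change was -0.05 with a limma adjusted p of 0.847. For BACH2 it was an intergenic site, chr6:90368955-90369467, with 56.0 and 64.4 untreated and 76.3 and 92.0 with TWEAK, which was called higher after quantile normalisation (log2 change 0.37) but not after median centring (0.23). For MAFF it was a site 10355 bp from CSNK1E, with 92.0 and 101 untreated and 83.2 and 88.3 with TWEAK, called lower after median centring alone (log2 change -0.42).

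The wider pathway is given by counts over lists of genes. Around 30 genes known to carry antioxidant response elements, such as the glutathione, thioredoxin, iron and pentose phosphate genes, 39 sites were gained (2.62%, against 3.6% of all sites) and 51 lost (3.43%, against 3.79%). Of their 727 shared sites, 41 (5.64%, against 5.82%) were called higher and 68 (9.35%, against 8.87%) lower. After quantile normalisation 41 (5.64%, against 5.78%) were called higher and 28 (3.85%, against 4.15%) lower. EPHX1, an epoxide hydrolase, had the most higher sites, 10 of its 46 shared sites, with 2 lower (10 and 0 after quantile normalisation). ABCC1, an efflux pump, and TXNRD1, a thioredoxin reductase, had the most lower sites, 11 each of 45 and 57 shared sites, with 1 and 3 higher. After quantile normalisation the lower sites were 6 and 7. Around 14 regulators and cofactors, such as CUL3, which joins KEAP1 in the ubiquitin ligase, and the acetyltransferases CREBBP and EP300, 19 sites were gained (3.44%) and 13 lost (2.36%). Of their 274 shared sites, 5 (1.82%) were called higher and 17 (6.20%) lower, and 5 (1.82%) and 7 (2.55%) after quantile normalisation. These differences from the genome's shares were not tested. The promoters of 28 and 14 genes of these lists had a shared site.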

How the data were processed

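The sample titles gave each library its group and replicate number. Per the submitters' processing notes and the study's methods, the authors trimmed reads with Trimmomatic, mapped them to hg38 with Bowtie2, filtered mitochondrial reads, removed duplicates with Picard, called peaks with MACS2 in each library separately and removed blacklisted regions. Versions and settings are not given in the sources used here, nor whether reads were shifted for the transposase. Each deposited peak is 501 bp wide and carries a number that was read, from its values, as the authors' −log10 p. It equals the Poisson upper tail for a whole-number pileup against 1 background per list, to within 0.0022 of a step, and it depends on depth. It was converted back into pileup and enrichment. The lists hold no read counts over common sites, so enrichment exists only where a peak was called, and fitted changes rest on called peaks.

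Peaks on chromosomes 1 to 22 and X were merged at an overlap of at least 1 bp. Shared sites were tested with limma 3.58.1 (empirical Bayes with trend) in R 4.3.3, 2 libraries against 2, threshold 0.05. The scripts were tested on simulated data. The design named DiffBind as the study's tool, and it needs reads. The methods call cell line replicates biological, but the labels name no separate culture, so p-values cannot be read as the spread between cultures. limma's standard errors and p-values rest on a spread drawn toward that of sites of similar enrichment, not on a site's own values alone. The 9 genes and the gene lists were chosen with earlier results of these data known. Sites were named by a rule: sites within 1 kb of a member's start, strong gained and lost sites or else the best ranked, the best ranked distal site, and up to 3 called sites per gene and direction, by smallest p, except that lower sites called after median centring alone are mostly given as counts. The 2 weakest of the 5 higher NFE2L3 sites, and the other pathway genes given with counts, fell outside that rule and were added after their values were seen. The site called lower with the smallest p near NFE2L1 and a list of further relatives are not reported here. Alternatives covered the merging overlap, window, scaling, filters, replicate block and leaving out each library. Leaving out a library sets 1 against 2, so the spread comes from the other group alone. A call can then be lost though the change stays similar, and the log2 change is given beside each such loss.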

Additional observations from a re-analysis of the deposited data

How the results depend on the processing

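With an overlap of at least 250 bp, 31 member sites were gained and 42 lost, against 20 and 32, and 23 were lower by limma, against 33. Within 50 kb, 13 were gained, 19 lost, 76 lower by rank and 13 lower by limma. Counting only sites nearest to a member's start, the difference in sites per library turned to 2.0, with 9 gained, 10 lost, 29 higher and 33 lower by rank, and 13 higher and 4 lower by limma. With no peak of the other treatment within 500 bp, 12 were gained and 11 lost. With enrichment of at least 5, 26 were gained and 14 lost, so gained sites then outnumbered lost ones. Sites called lower numbered 9 after quantile normalisation, 7 on the log2 odds of rank and 19 where best peaks lay within 250 bp, an alternative chosen after seeing the data. Leaving out each library in turn gave 46 to 59 gained, 58 to 120 lost, 62 to 108 higher and 178 to 241 lower by rank, and 0 to 18 higher and 0 to 19 lower by limma. limma called nothing without TWEAK replicate 2 (0 of 146305 shared sites), against 9.54% to 10.1% of shared sites without another library, and the cause was not tested. Apart from that setting, 17 of the 53 called sites (12 higher, 5 lower) kept their call in every setting in which they were tested, and none reversed.

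With the replicate number as a block, 21 member sites were called higher and 37 lower, and 22473 sites against 19347 overall. Over the 2 pairs, the block gave a difference of -42 sites per library (exact sign-flip p = 1, smallest possible 0.5). Deviations of same-numbered libraries correlated at 0.024 over the shared sites. The labels give these libraries nothing in common but the number, and whether they share a culture or batch cannot be told from these data. Depth limits weak sites most: a site near the calling threshold of a shallower list can be missed there, so gained and lost calls at low enrichment are the least certain.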
